A study of Danio rerio with 34 samples.

Results

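The genes described here are the mesoderm T-box and notochord regulators of the early zebrafish embryo, taken from a fixed list of 10 names: tbxta, tbxtb, tbx16, tbx6, eomesa, noto, msgn1, mespaa, foxc1a and flh. Because flh is an older name of noto, the list stands for 9 separate genes, and 8 of them had a RefSeq transcript among the 13856 transcripts listed in the RNA-seq libraries. The remaining gene, tbxtb, was not analysed here. Their transcripts were NM_131162 for tbxta, NM_131058 for tbx16, NM_153666 for tbx6, NM_131679 for eomesa, NM_131055 for noto, NM_182882 for msgn1, NM_131551 for mespaa and NM_131728 for foxc1a, and their lengths ran from 886 nucleotides for mespaa to 3049 for tbx6. The rule takes the members by gene name and uses no measured value, but the members were chosen with earlier results of these data known. The study profiled mRNA levels by RNA-seq in 10 libraries and mRNA flexibility by icSHAPE in 8 profiles, with poly(A)-selected RNA from embryos of the wild-type strain AB. The morphant embryos had been injected at the 1-cell stage with a morpholino that blocks translation of elavl1a, which encodes an RNA-binding protein. RNA-seq covered morphants at 4 and 6 hours post fertilization (h.p.f.) and control embryos at 2, 4 and 6 h.p.f., with 2 libraries in each of these 5 groups. The study's methods describe a control morpholino injected at the same stage, but the labels of the control libraries name no injected agent, so whether these libraries came from such embryos is not known. The icSHAPE profiles covered morphants at 4 and 6 h.p.f. and wild type at 6 stages, 0, 0.4, 1, 2, 4 and 6 h.p.f. Labels of the wild-type profiles name no injected agent either. An effect of injection and one of the elavl1a block therefore cannot be told apart in the icSHAPE comparisons.

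T-box transcription factors bind DNA through a conserved domain and drive the formation and patterning of mesoderm in vertebrate embryos. In zebrafish, Nodal signalling at the blastula margin switches on tbxta, the Brachyury orthologue needed for the notochord and tail, and tbx16, needed for trunk paraxial mesoderm. The homeobox gene noto holds midline cells in the notochord fate, while msgn1, tbx6, mespaa and foxc1a act in the presomitic mesoderm that later segments into somites. Most of these genes are transcribed only once the zygotic genome is switched on, whereas eomesa mRNA is also loaded into the egg by the mother.

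Each library held 61776396 to 104388477 uniquely mapped reads, and 11593 to 12530 transcripts were listed in it. Levels are given as RPKM, reads scaled to transcript length and library size, as the authors deposited them, and transcripts under 0.1 RPKM were not listed. Differences are log2 fold changes of uniquely mapped reads scaled to library totals, tested with edgeR's quasi-likelihood test over the 9945 transcripts that averaged 1 RPKM or more, and called at a Benjamini-Hochberg adjusted p under 0.05. All 8 members passed that filter. The study calls its RNA-seq replicates biological, but the labels do not say whether the libraries of a group came from separate clutches, so the p-values measure only the spread between these libraries. In whole embryos, fewer cells of a type and less RNA per cell cannot be told apart. The study reports that morphants were moderately late in reaching sphere and markedly delayed in gastrulation. The groups compared here were matched by hours, so a change in a gene's RNA and a difference in embryo timing cannot be told apart either. The targeted transcript, elavl1a, stood at 205 and 204 RPKM in morphants and 202 and 200.5 RPKM in controls at 4 h.p.f. (log2 fold change 0.022, edgeR adjusted p = 0.304), and at 343 and 342 RPKM in morphants and 298 and 299 RPKM in controls at 6 h.p.f. (0.20, edgeR adjusted p = 1.55e-09). A block of translation need not lower the mRNA, so these levels do not check the knockdown.

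Several marker lists of other cell types differed between morphants and controls. Over all transcripts tested, 22.9% were called lower and 39.5% higher in morphants at 4 h.p.f., and 39% lower and 40.6% higher at 6 h.p.f. At 4 h.p.f., the summed level of the 5 enveloping layer markers with a row in the files was 638 and 641 RPKM in morphants, against 1027 and 1016 RPKM in controls, and 5 of 5 were called lower. The 5 yolk syncytial layer markers summed to 95.1 and 94.0 RPKM in morphants, against 142 and 144 RPKM in controls, again with 5 of 5 lower, while 5 maternal mRNAs that are normally cleared summed to 2973 and 2997 RPKM in morphants and 2456 and 2451 RPKM in controls, with 4 higher and 1 lower. The 4 endoderm markers summed to 85.1 and 84.4 RPKM in morphants at 4 h.p.f., against 106 and 107 RPKM in controls, with 3 lower and 1 neither and a median log2 fold change of −0.85. At 6 h.p.f. the enveloping layer markers summed to 6071 and 6027 RPKM in morphants and 6817 and 6808 RPKM in controls, with 1 higher and 4 lower. At that stage the yolk syncytial layer markers summed to 400.5 and 399 RPKM in morphants and 309.8 and 321 RPKM in controls, with 4 higher and 1 lower. The lower one, apoa1b, weighed on that sum, at 107 and 106 RPKM in morphants and 221 and 230 RPKM in controls. The endoderm markers, lower at 4 h.p.f., summed to 349 and 356 RPKM in morphants and 269 and 267 RPKM in controls, with 4 of 4 higher and a median of 0.42, and the maternal mRNAs to 208 and 217 RPKM in morphants and 279 and 284 RPKM in controls, with 1 higher and 3 lower. The neural ectoderm markers summed to 268 and 264 RPKM in morphants at 4 h.p.f., against 235 and 234 RPKM in controls. Median log2 fold changes there were 0.18 for neural ectoderm, 0.68 for epidermal ectoderm and 0.057 for germ cell markers. At 6 h.p.f. they were 0.063, −0.036 and −0.23. None of these markers was unlisted in any library at 4 or 6 h.p.f. The part of these lists in the members' changes was not tested.

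The course of the members in control embryos answers when each mRNA appeared. Across all transcripts, the median log2 fold change was −0.23 for 4 over 2 h.p.f. and −0.64 for 6 over 4 h.p.f. For eomesa, tbx16 and noto a change is therefore also given relative to that median. Of the 8 members, 5 were called higher and 2 lower at 4 than at 2 h.p.f., where 83.3% of all transcripts tested were called, 28.2% higher and 55% lower. At 6 against 4 h.p.f., 6 of the 8 were called higher and 2 lower, where 93.1% of all transcripts were called, 30.1% higher and 63% lower. These splits depended on the scaling: with TMM factors, 4150 transcripts were higher and 3843 lower at 4 than at 2 h.p.f. (2808 and 5473 with library totals), and 4382 were higher and 4712 lower at 6 than at 4 h.p.f. (2994 and 6267 with library totals). The counts of members were the same under both scalings.

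The maternal T-box gene eomesa, which acts in early mesoderm and endoderm induction, fell at each stage. In control embryos it stood at 86.9 and 88.1 RPKM at 2 h.p.f., 57.9 and 60.1 RPKM at 4 h.p.f. and 9.48 and 10.0 RPKM at 6 h.p.f. The libraries of the 3 stages did not overlap. The change was −0.58 on the log2 scale for 4 over 2 h.p.f. (SE 0.0309, edgeR adjusted p = 3.05e-13) and −2.72 for 6 over 4 h.p.f. (SE 0.0376, edgeR adjusted p = 1.94e-23), which left 15.2% of the level at 4 h.p.f. Relative to the median transcript, these changes were −0.35 and −2.08.

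The zygotic T-box genes tbx16 and tbxta were not listed in either library at 2 h.p.f. and differed in how soon they reached their level. The tbx16 transcript stood at 118 and 121 RPKM at 4 h.p.f. and at 158 and 153 RPKM at 6 h.p.f. in controls. It was thus at least 1193-fold higher at 4 than at 2 h.p.f., counting an unlisted transcript at 0.1 RPKM, and rose a further 1.30-fold by 6 h.p.f. (log2 fold change 0.37, SE 0.0205, edgeR adjusted p = 7.67e-13; 1.01 relative to the median transcript). The tbxta transcript stood at 29.2 and 28.9 RPKM at 4 h.p.f. and at 312 and 310.4 RPKM at 6 h.p.f. in controls. It was at least 291-fold higher at 4 than at 2 h.p.f. and rose a further 11.2-fold by 6 h.p.f. (log2 fold change 3.48, SE 0.0238, edgeR adjusted p = 3.85e-27). The tbx16 level was above that of tbxta in both libraries at 4 h.p.f., and below it in both at 6 h.p.f.

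The T-box gene tbx6, which acts in somite segmentation, was the least abundant member in controls at both 4 and 6 h.p.f. It stood at 0.261 and 0.210 RPKM at 2 h.p.f., 0.217 and 0.245 RPKM at 4 h.p.f. and 1.82 and 1.73 RPKM at 6 h.p.f. in controls. The libraries at 2 and 4 h.p.f. overlapped (log2 fold change −0.074, SE 0.331, edgeR adjusted p = 0.842), and those at 6 h.p.f. were above both, by 10.5-fold over 4 h.p.f. (3.39, SE 0.257, edgeR adjusted p = 7.84e-11). The transcript meant here is the one the RefSeq table names tbx6, also known as tbx24. The gene once called tbx6 is now tbx16l and is counted below among the paraxial mesoderm genes.

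The notochord homeobox gene noto appeared early. It was not listed at 2 h.p.f., stood at 141 and 144 RPKM at 4 h.p.f. and at 79.3 and 82.0 RPKM at 6 h.p.f. in controls. It was at least 1423-fold higher at 4 than at 2 h.p.f. and fell to 55.8% of that level by 6 h.p.f. (log2 fold change −0.84, SE 0.0331, edgeR adjusted p = 2.98e-15). Most of this drop was shared by the median transcript, and relative to it the change was −0.20. With TMM factors it was −0.27 and with DESeq2 −0.10.

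The presomitic mesoderm genes msgn1, mespaa and foxc1a were at 2.54 RPKM or less until 4 h.p.f. and were all called higher at 6 h.p.f. The bHLH gene msgn1, which promotes differentiation of presomitic mesoderm, stood at 1.30 and 1.44 RPKM at 2 h.p.f., 2.50 and 2.54 RPKM at 4 h.p.f. and 169 and 173 RPKM at 6 h.p.f. in controls, an 84.2-fold rise over the last interval (log2 fold change 6.40, SE 0.0441, edgeR adjusted p = 4.97e-28). The bHLH gene mespaa, which helps set somite boundaries, stood at 1.84 and 1.80 RPKM at 2 h.p.f., 0.806 and 0.607 RPKM at 4 h.p.f. and 28.3 and 24.8 RPKM at 6 h.p.f. It fell between 2 and 4 h.p.f. (log2 fold change −1.72, SE 0.235, edgeR adjusted p = 1.05e-06) and then rose 56.4-fold (5.82, SE 0.165, edgeR adjusted p = 2.92e-18). The forkhead gene foxc1a, needed for somite formation, was not listed at 2 h.p.f., stood at 0.250 and 0.261 RPKM at 4 h.p.f. and at 27.3 and 28.1 RPKM at 6 h.p.f., a 205-fold rise over the last interval (7.68, SE 0.107, edgeR adjusted p = 1.41e-22). Only 39 and 18 unique reads lay on mespaa and 20 and 20 on foxc1a at 4 h.p.f., so their folds rest on few reads.

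**Figure D1:**
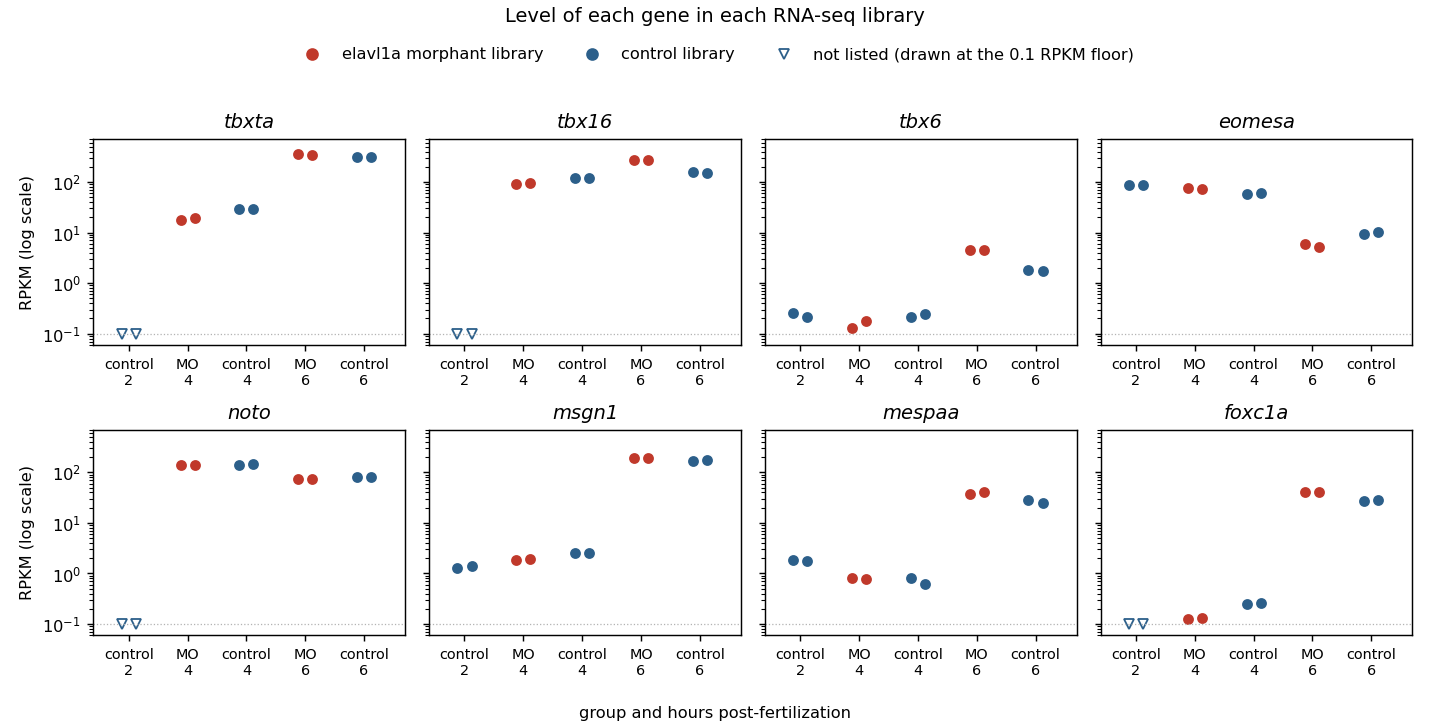
The level of each of the 8 members in the 10 RNA-seq libraries, as RPKM on a log axis, by group (MO, morphant) and hours post fertilization, with 1 point per library and open triangles at 0.1 RPKM for libraries in which a transcript was not listed. Of the 8, eomesa is the member that stands highest at 2 h.p.f., at 86.9 and 88.1 RPKM, while tbxta, tbx16, noto and foxc1a are not listed there.

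The comparison of morphants with controls at 4 h.p.f. asks how the members stood early. By then tbxta, tbx16 and noto had appeared in controls, while the presomitic genes were still low and eomesa was falling. Of the 8 members, 1 was called higher, 4 lower and 3 neither. Over all transcripts tested, 62.5% were called, 39.5% higher and 22.9% lower, and with TMM factors the split of 3933 higher and 2278 lower became 2977 and 3076. The members' median log2 fold change was −0.36, against 0.071 for all transcripts.

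The lower members included both early mesoderm T-box genes. The values read as RPKM in the pooled icSHAPE profiles ran the other way and are given with those profiles. The tbxta level was 17.9 and 19.0 RPKM in morphants, against 29.2 and 28.9 RPKM in controls. The groups did not overlap, and the morphant level was 62.7% of the control level (log2 fold change −0.67, SE 0.0292, edgeR adjusted p = 3.89e-13). The tbx16 level was 92.5 and 94.6 RPKM in morphants, against 118 and 121 RPKM in controls, again without overlap (78.1% of control, −0.36, SE 0.0212, edgeR adjusted p = 3.71e-11). The notochord gene noto gave overlapping groups, with 142 and 139 RPKM in morphants and 141 and 144 RPKM in controls (−0.023, SE 0.0323, edgeR adjusted p = 0.553). This call changed with the scaling: noto was called lower with TMM factors (−0.10, adjusted p = 0.0136) and with DESeq2 (−0.12, adjusted p = 0.00616).

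The maternal member moved the other way. The eomesa level was 75.2 and 73.3 RPKM in morphants, against 57.9 and 60.1 RPKM in controls (1.27-fold, log2 fold change 0.34, SE 0.0314, edgeR adjusted p = 1.03e-08). Both morphant libraries lay above both control libraries at 4 h.p.f. and below the control libraries at 2 h.p.f.

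The presomitic genes were barely expressed at 4 h.p.f. and gave less certain calls. The msgn1 level was 1.86 and 1.90 RPKM in morphants and 2.50 and 2.54 RPKM in controls (77.9% of control, log2 fold change −0.36, SE 0.0917, edgeR adjusted p = 0.00205), a call that was lost when only these 2 groups entered the fit (adjusted p = 0.0872). The foxc1a level was 0.127 and 0.133 RPKM in morphants and 0.250 and 0.261 RPKM in controls (51.2% of control, −0.96, SE 0.356, edgeR adjusted p = 0.0248), on 8 and 12 unique reads against 20 and 20. That call was lost without the second control library (−0.86, adjusted p = 0.102), without the first morphant library (−0.81, adjusted p = 0.120) and with only the 2 groups in the fit (−0.97, adjusted p = 0.344). The mespaa level was 0.832 and 0.788 RPKM in morphants and 0.806 and 0.607 RPKM in controls, and the tbx6 level 0.131 and 0.181 RPKM in morphants and 0.217 and 0.245 RPKM in controls. In RPKM, which also counts multiply mapped reads, the groups overlapped for mespaa and not for tbx6. Scaled to library totals, the unique reads of mespaa did not overlap (40 and 41 in morphants, 39 and 18 in controls before scaling). Neither mespaa (0.54, SE 0.295, edgeR adjusted p = 0.121) nor tbx6 (−0.74, SE 0.394, edgeR adjusted p = 0.110) was called. Without the first control library, the log2 fold changes were 1.09 for mespaa and −1.08 for tbx6. DESeq2 called tbx6 lower (−0.84, adjusted p = 0.0282).

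At 6 h.p.f. several members stood on the other side of the controls. Of the 8, 6 were called higher and 2 lower in morphants than in controls, where 40.6% of all transcripts tested were called higher and 39% lower. The members' median log2 fold change was 0.36, against 0.0075 for all transcripts. With 79.6% of all transcripts called in either direction, a call alone says little here, and the sizes of the changes matter more.

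The largest changes among the members lay in tbx6, eomesa and tbx16. The tbx6 level was 4.54 and 4.48 RPKM in morphants, against 1.82 and 1.73 RPKM in controls, with no overlap (2.62-fold in scaled reads, log2 fold change 1.39, SE 0.186, edgeR adjusted p = 9.77e-07). The tbx16 level was 272 and 268 RPKM in morphants, against 158 and 153 RPKM in controls (1.74-fold, 0.80, SE 0.0201, edgeR adjusted p = 9.02e-18). The value read as RPKM in the pooled icSHAPE profiles, which set morphants against wild type, did not show the tbx16 rise. It is given with those profiles. By RNA-seq, both of these T-box genes were above every control library of any stage in the morphants at 6 h.p.f. The eomesa level was 5.90 and 5.28 RPKM in morphants, against 9.48 and 10.0 RPKM in controls, or 55.2% of the control level (−0.86, SE 0.0515, edgeR adjusted p = 4.01e-12).

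The remaining members changed less. The tbxta level was 350.4 and 348 RPKM in morphants and 312 and 310.4 RPKM in controls, a 1.12-fold difference without overlap (log2 fold change 0.17, SE 0.0196, edgeR adjusted p = 1.85e-07). Its size depended on the processing: over the alternative fits the log2 fold change of tbxta was 0.067 to 0.17. The noto level was 74.4 and 74.7 RPKM in morphants and 79.3 and 82.0 RPKM in controls, 92.3% of the control level (−0.12, SE 0.0346, edgeR adjusted p = 0.00501). The spread between replicates, estimated over all groups together, was small enough for differences of this size to be called. Its common coefficient of variation was 0.0268. The members lower in morphants at this stage were noto and eomesa.

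Of the presomitic genes, mespaa stood at 38.2 and 40.3 RPKM in morphants and 28.3 and 24.8 RPKM in controls (1.49-fold, log2 fold change 0.58, SE 0.0965, edgeR adjusted p = 1.73e-05). The foxc1a level was 40.1 and 40.7 RPKM in morphants and 27.3 and 28.1 RPKM in controls (1.46-fold, 0.54, SE 0.0513, edgeR adjusted p = 9.68e-09). Both genes were higher in every morphant library than in any control library. The msgn1 level was 188 and 189.6 RPKM in morphants and 169 and 173 RPKM in controls (1.11-fold, 0.15, SE 0.0261, edgeR adjusted p = 3.11e-05), and this call was lost with DESeq2 (0.046, adjusted p = 0.146).

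**Figure D2:**
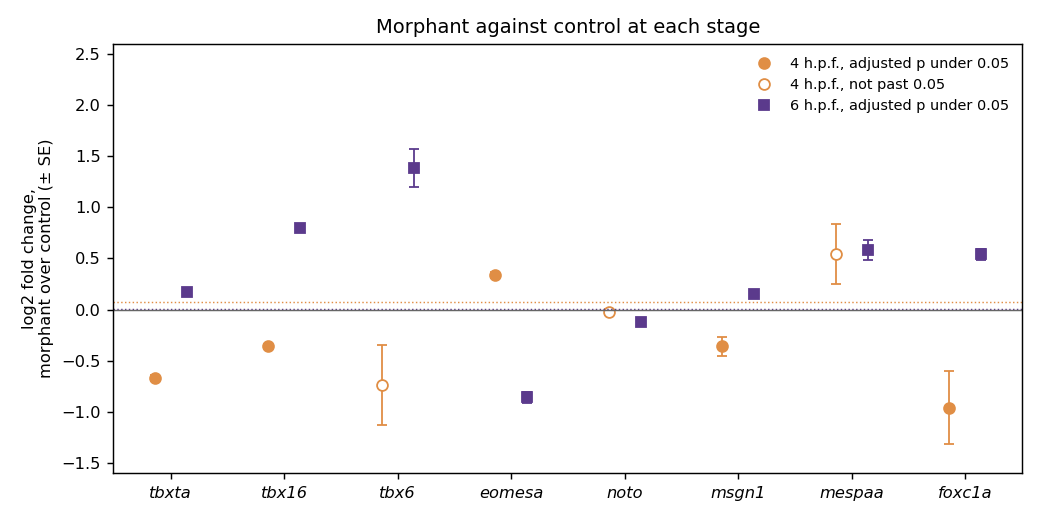
The log2 fold change of each member in morphants over controls, with circles for 4 h.p.f. and squares for 6 h.p.f., error bars for 1 SE, open symbols where the adjusted p was not under 0.05, and dotted lines for the median of all transcripts tested. For tbxta, tbx16, msgn1 and foxc1a the circle lies below 0 and the square above it, and for eomesa the circle lies at 0.34 and the square at −0.86.

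Whether the difference between morphants and controls was the same at the 2 time points was tested directly. The contrast was the change from 4 to 6 h.p.f. in morphants minus that in controls. Of the 8 members, 5 had a higher change in morphants, 1 a lower change and 2 neither, where 74.1% of all transcripts were called, 35.3% higher and 38.8% lower. The difference was 1.16 on the log2 scale for tbx16 (SE 0.0292, edgeR adjusted p = 2.25e-17), 0.84 for tbxta (SE 0.0352, edgeR adjusted p = 5.32e-14) and −1.20 for eomesa (SE 0.0603, edgeR adjusted p = 3.28e-13). These 3 T-box genes had the smallest p of the members, and each had an opposite sign of effect at the 2 stages. The difference was 2.13 for tbx6 (SE 0.433, edgeR adjusted p = 1.83e-04), 1.51 for foxc1a (SE 0.358, edgeR adjusted p = 9.03e-04) and 0.51 for msgn1 (SE 0.0953, edgeR adjusted p = 7.54e-05). It was not called for noto (−0.093, SE 0.0473, edgeR adjusted p = 0.0849) or mespaa (0.041, SE 0.327, edgeR adjusted p = 0.917). This contrast, the comparisons at each stage and the course in controls share their control libraries.

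Within the morphants themselves, 6 of the 8 members were called higher at 6 than at 4 h.p.f. and 2 lower, where 93.5% of all transcripts were called, 32.1% higher and 61.4% lower (3193 and 6106 with library totals, 4412 and 4771 with TMM factors). The tbx16 level at 6 h.p.f. was 2.90-fold that at 4 h.p.f. (edgeR adjusted p = 7.44e-23) and the tbxta level 20.1-fold (edgeR adjusted p = 2.66e-28), while eomesa fell to 6.6% of its level at 4 h.p.f. (edgeR adjusted p = 2.69e-25). The control changes were 1.30-fold, 11.2-fold and 15.2%. Among the 6 members that rose in controls, the morphant level at 6 h.p.f. had covered 103% of the control change from 4 to 6 h.p.f. for msgn1, 105% for tbxta, 112% for foxc1a, 114% for mespaa, 184% for tbx6 and 310% for tbx16, on log2(RPKM + 1). The median over 1432 transcripts called more than 2-fold higher in controls was 90.6%, with quartiles of 64.1% and 116%. The control change of tbx16 was the smallest of these 6 and under 2-fold, so tbx16 lies outside the set of 1432 transcripts. Its share became 176% after rescaling with TMM factors. The share of tbx6, a transcript at low levels, became 167% with TMM factors and 152% on log2(RPKM + 0.1).

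The orders of the levels follow from these values. For tbxta, tbx16 and foxc1a the order was not listed at 2 h.p.f., then morphants at 4, controls at 4, controls at 6 and morphants at 6 h.p.f., and each of these neighbours from 4 h.p.f. on differed by its test. For noto the order was morphants at 6, controls at 6, then morphants and controls at 4 h.p.f., the last pair not differing beyond its spread. For eomesa it was morphants at 6, controls at 6, controls at 4, morphants at 4 and controls at 2 h.p.f., with the last step not tested. For msgn1 it was controls at 2, morphants at 4, controls at 4, controls at 6 and morphants at 6 h.p.f., with the first step not tested. For tbx6 the levels of morphants and controls at 4 h.p.f. were not told apart, nor were those of controls at 4 and 2 h.p.f., and controls at 6 and morphants at 6 h.p.f. followed above them. For mespaa the 4 h.p.f. groups were lowest and not told apart, below controls at 2, controls at 6 and morphants at 6 h.p.f.

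Other genes of the same territories were counted in 5 lists, and the members were left out of them. The lists were chosen by known function, with earlier results of these data known, so their counts are descriptions. The share over all transcripts to set beside each count is 39.5% higher and 22.9% lower at 4 h.p.f., and 40.6% higher and 39% lower at 6 h.p.f. The axial mesoderm list held 12 genes of the organizer and notochord, of which 10 could be tested. At 4 h.p.f., 1 of the 10 was higher and 6 lower in morphants, with a list median of −0.65. The higher one was shha, which was not listed in controls and so entered the test there as 0 reads. Among those called neither, twist2 was not listed in either group. The forkhead gene foxa3 averaged 15.3 RPKM in morphants and 38.8 RPKM in controls (log2 fold change −1.40, edgeR adjusted p = 9.93e-17), and the BMP-family ligand admp averaged 24.7 RPKM in morphants and 51.2 RPKM in controls (−1.07). At 6 h.p.f., 4 of the 10 were higher and 3 lower, with a median of 0.025. There admp remained lower, at 33.7 RPKM in morphants and 60.2 RPKM in controls (−0.86), as did the organizer homeobox gene gsc at 32.3 against 53.2 RPKM (−0.75), while foxa2 was higher at 29.3 against 19.1 RPKM (0.63). The Hedgehog ligand shha averaged 0.256 RPKM in morphants at 4 h.p.f. and was not listed in controls, whereas at 6 h.p.f. it was lower in morphants, at 4.43 against 6.50 RPKM (−0.60).

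The paraxial mesoderm list held 16 genes, of which 12 could be tested. At 4 h.p.f., 2 were higher and 4 lower in morphants, with a median of 0.025. The T-box gene tbx16l averaged 0.345 RPKM in morphants and 0.914 RPKM in controls (−1.52, edgeR adjusted p = 2.05e-07), and the Delta ligand dlc averaged 0.471 RPKM in morphants and 0.258 RPKM in controls (1.20). At 6 h.p.f., 4 were higher and 3 lower, with a median of −0.0055. The protocadherin pcdh8 averaged 37.5 RPKM in morphants and 12.2 RPKM in controls (1.72, edgeR adjusted p = 2.07e-16) and the retinoic acid synthesis gene aldh1a2 81.7 RPKM in morphants and 44.2 RPKM in controls (0.91), while dlc was lower at 23.5 against 42.8 RPKM (−0.91). In controls, 10 of the 12 rose between 4 and 6 h.p.f., where 30.1% of all transcripts were called higher, with a median of 5.93 against −0.64 for all transcripts, for example mespab, the close relative of mespaa, with 58.5 RPKM at 6 h.p.f. and 0.269 RPKM at 4 h.p.f. (8.56).

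Of the mesoderm inducer list, mostly genes of the Nodal and FGF pathways, 11 could be tested. At 4 h.p.f., 2 were higher and 6 lower in morphants, with a median of −0.39. The homeobox gene mixl1, a Nodal target, averaged 18.6 RPKM in morphants and 38.5 RPKM in controls (−1.09), the Nodal antagonist lft1 13.2 RPKM in morphants and 23.6 RPKM in controls (−0.93), and fgf8a 11.5 RPKM in morphants and 18.0 RPKM in controls (−0.68). At 6 h.p.f., 6 were higher and 2 lower, with a median of 0.31. The Nodal co-receptor tdgf1 averaged 13.3 RPKM in morphants and 6.41 RPKM in controls (1.06) and mixl1 46.8 RPKM in morphants and 26.7 RPKM in controls (0.84), whereas fgf8a was still lower at 29.2 against 43.6 RPKM (−0.60). In the test of the difference between the stages, 7 of 11 inducers were called with a higher change in morphants, 0 with a lower one and 4 with neither in edgeR, where 35.3% of all transcripts were called higher and 38.8% lower.

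Of the ventral and lateral mesoderm genes, 6 could be tested, and at 4 h.p.f. 6 of 6 were lower in morphants, with a median of −0.87. The homeobox repressor ved averaged 98.2 RPKM in morphants and 169 RPKM in controls (−0.80) and its relative vent 6.69 RPKM in morphants and 12.4 RPKM in controls (−0.95). At 6 h.p.f., 2 were higher and 4 lower: vent was higher at 35.7 against 18.6 RPKM (0.98), while ved was lower at 415 against 733 RPKM (−0.82) and the BMP feedback gene szl was lower at 4.60 against 17.8 RPKM (−2.07). Of 17 other T-box genes, 11 were in the files and 5 could be tested, with 2 higher and 1 lower in morphants at 4 h.p.f. and 1 higher and 3 lower at 6 h.p.f. In that group tbx2b averaged 0.471 RPKM in morphants and 0.200 RPKM in controls at 4 h.p.f. (1.25), and 1.29 RPKM in morphants and 3.01 RPKM in controls at 6 h.p.f. (−1.43).

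**Figure D3:**
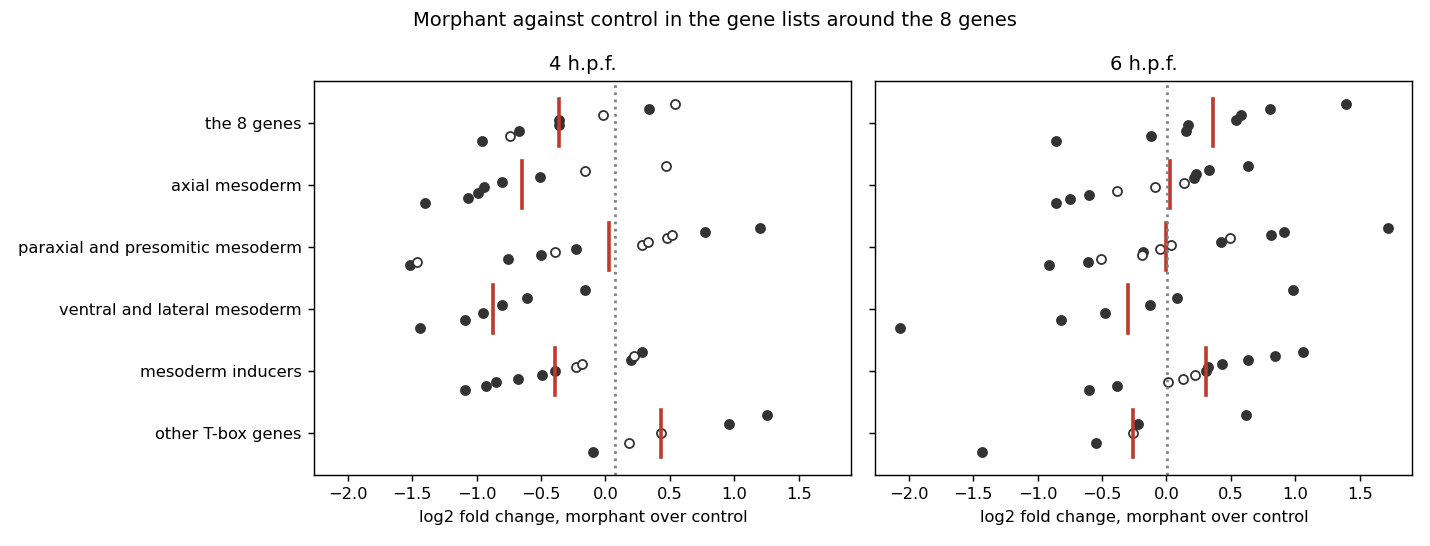
The log2 fold change in morphants over controls of each tested gene in the member list and the 5 context lists, at 4 and at 6 h.p.f., with filled points for an adjusted p under 0.05, open points otherwise, a red line for the list median and a dotted line for the median of all transcripts. The ventral and lateral mesoderm genes lie below 0 at 4 h.p.f., where 6 of 6 were called lower, and on both sides of it at 6 h.p.f.; shha and twist2 are not drawn at 4 h.p.f. because a group was not listed.

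The transcripts whose course over the 5 groups was most like that of each member were sought by the root mean square difference of centred log2(RPKM + 1) group means, as a description. For tbxta the nearest was alcamb, a cell adhesion molecule gene, at 0.102, with 22.4 RPKM in morphants and 32.4 RPKM in controls at 4 h.p.f. and 354 RPKM in each at 6 h.p.f., followed by krt92 at 0.312 and sesn3 at 0.315. For msgn1 the nearest were mespab at 0.110, anxa1c at 0.144 and sox2 at 0.163, and for mespaa efemp2b at 0.258, her7 at 0.265 and prdm1a at 0.280. For tbx16 they were lrwd1 at 0.288, sox3 at 0.319 and sox19a at 0.387, and for noto gadd45bb at 0.186, gata3 at 0.230 and klf17 at 0.282. For foxc1a they were kirrel3l at 0.190, rbm47 at 0.192 and prdm14 at 0.192. For the low or maternal members the nearest were adora2ab at 0.0301 for tbx6 and picalma at 0.0395 for eomesa. The genes sox3 and sox19a also stand in the neural marker list, gata3 in the epidermal list and krt92 in the enveloping layer list.

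The second readout, icSHAPE, measures how readily the reagent NAI-N3 modifies each nucleotide, against a DMSO background. The reactivity runs from 0 to 1, and a high value means a flexible, mostly unpaired nucleotide. The authors combined the replicates of a stage, so each profile is a single value per nucleotide, the reads behind it are not known, and no test across conditions was possible. A transcript entered when more than 50% of its nucleotides had a value, and its place among all transcripts of the same profile was used to read its mean.

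The mRNA of eomesa could be followed from the egg, since it was the member valued in the profiles before 4 h.p.f. Its mean reactivity in wild type was 0.305, 0.354, 0.288, 0.251 and 0.311 over the stages of 0, 0.4, 1, 2 and 4 h.p.f. The medians of all transcripts at these stages were 0.297, 0.343, 0.277, 0.245 and 0.289, so eomesa followed the profile as a whole. It lay at the percentiles 65.1, 72.2, 69.6, 62.2 and 83.7, above the middle at each stage. At 6 h.p.f., where the value read as RPKM in the profile was 9.75, it was listed with no valued nucleotide.

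The other members entered the profiles as they became abundant. At 4 h.p.f. in wild-type embryos, tbx16 had a mean of 0.267 (percentile 19.9) and noto 0.302 (percentile 71.2, with 605 of 953 nucleotides valued), around a median of 0.289. At 6 h.p.f., the means were 0.303 for tbx16 (percentile 69.3), 0.301 for noto (66.4), 0.292 for tbxta (51.8), 0.287 for msgn1 (42.6), 0.278 for foxc1a (29.7) and 0.252 for mespaa (7.46, with 647 of 886 nucleotides valued), around a median of 0.291. Of the members measured at both stages, tbx16 thus lay on the more flexible side of the transcriptome at 6 h.p.f. and on the more structured side at 4 h.p.f. Over the nucleotides valued at both stages its mean was higher at 6 h.p.f. by 0.0341, and 95.2% of 3467 transcripts had a lower difference, with a median of 0.000273. The value read as RPKM for tbx16 was 41.3 in the earlier of these wild-type profiles and 332 in the later one. Its share of nucleotides at exactly 0 was 13.6% in the earlier profile and 5.5% in the later one. The morphant profile of 4 h.p.f., with a value of 109, gave tbx16 a mean of 0.313 (percentile 72.1). The part of coverage in the stage difference of tbx16 was not tested. The tbx6 transcript was listed in no profile.

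**Figure D4:**
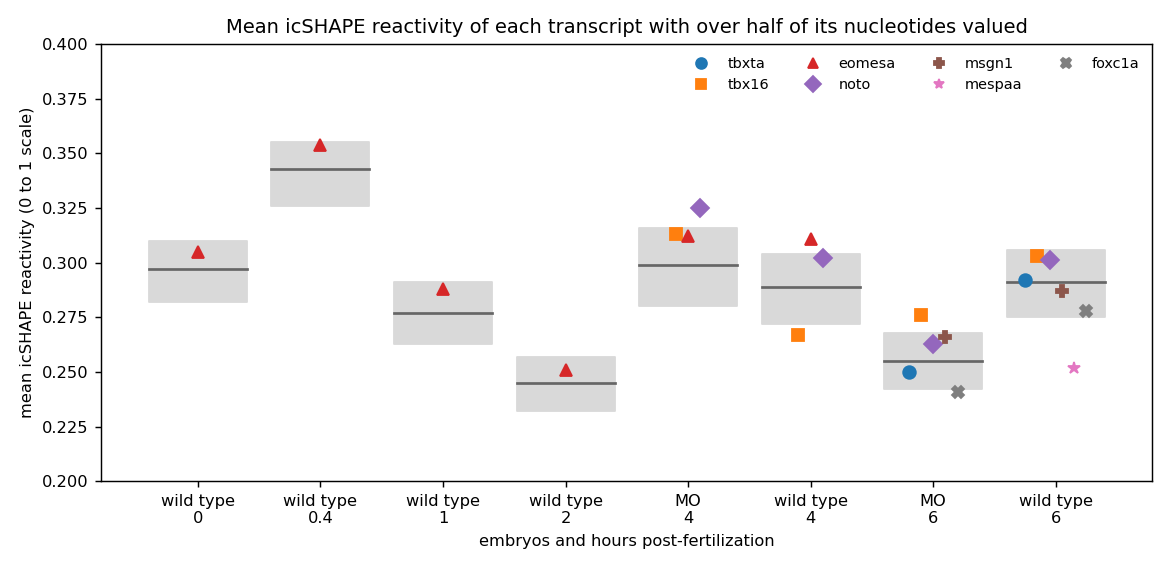
The mean icSHAPE reactivity of each member in the 8 profiles (MO, morphant; hours post fertilization on the x axis), with a line for the median and a grey band for the quartiles of all transcripts in the same profile. The tbx16 point at 4 h.p.f. lies below the band in wild-type embryos, at 0.267, and inside it in morphants, at 0.313.

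The morphants at 4 h.p.f. differed little from wild type over all transcripts, with a median difference of 0.00382 over 3871 transcripts and quartiles of −0.00615 and 0.0141. For tbx16, the mean over 2448 shared nucleotides was 0.312 in morphants and 0.270 in wild type, a difference of 0.0421, and 98.3% of transcripts had a lower difference. The difference was 0.0224 for noto, over 605 nucleotides (percentile 87.9), and 0.00548 for eomesa (percentile 54.5). The profiles also hold a further value per transcript, read here as RPKM from the output format, since no header names it. It comes from the probing libraries and was not shown to measure mRNA level. Its shift over all transcripts was not computed. It did not follow the RNA-seq levels at this stage. For tbx16 it was 109 in the morphant profile and 41.3 in the wild-type profile, and for tbxta 17.9 in morphants and 10.3 in wild type. For noto it was 49.9 in morphants and 29.0 in wild type, and for eomesa 93.0 in morphants and 134 in wild type. These are pooled values with no spread. By RNA-seq, tbx16 and tbxta were lower and eomesa higher in morphants. RPKM is scaled to library size, so these values do not give the read coverage behind the reactivities. For tbx16, 96.3% of nucleotides were valued in the morphant profile and 98.2% in the wild-type profile. The part of coverage in the tbx16 difference was not tested. By windows of 100 nucleotides, tbx16 was higher in morphants in 22 of 25 and lower in 3. For eomesa 12 of 25 windows were higher and 13 lower. Over 67901 windows of all transcripts the median difference was 0.00304, and the share of them that was higher was not computed.

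At 6 h.p.f. the whole profile was lower in morphants than in wild type, with a median difference of −0.0383 over 3327 transcripts. The quartiles were −0.0488 and −0.0276, and 97.7% of transcripts lay below 0. The median share of nucleotides at exactly 0 was 21.7% in morphants and 10.4% in wild type, with 4303 and 6996 transcripts listed. That share was also higher in morphants for tbxta, tbx16, noto, msgn1 and foxc1a. Its part in the lower median was not tested. The value read as RPKM in the profiles was 314 in morphants and 332 in wild type for tbx16, whose RNA-seq level was higher in morphants. For tbxta it was 287 in morphants and 286 in wild type. A member's own difference has to be read against that shift. The differences were −0.0426 for tbxta, −0.0404 for foxc1a, −0.0339 for noto, −0.0291 for tbx16 and −0.0208 for msgn1, at the percentiles 39.0, 44.8, 60.9, 72.0 and 85.3. Each was lower in morphants, and all but msgn1 lay within the quartiles of all transcripts. The share of nucleotides that changed by more than 0.2 was 21.5% for tbxta, 26.4% for tbx16, 28.1% for msgn1, 36.2% for foxc1a and 37.6% for noto, around a median of 31.5%.

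Along the transcripts the change was uneven. Over 5 equal segments counted from the 5′ end, tbx16 differed between morphants and wild type at 6 h.p.f. by −0.055, −0.0774, −0.0427, −0.0148 and 0.053. The last segment of tbx16 was higher in morphants, at 0.311 against 0.258 in wild type. The median transcript differed there by −0.0205, with quartiles of −0.0417 and 0.0048. The last segment of noto was also higher, at 0.288 in morphants and 0.251 in wild type (0.0365), and that of foxc1a was lower (−0.0551). For msgn1, the first segment carried the largest difference, −0.0858, at 0.246 in morphants and 0.332 in wild type, and the other segments lay between −0.00889 and −0.000971. The tbxta transcript was lower in morphants in every segment, by −0.0656 to −0.0233.

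The windows that stood out were singled out after their values were seen. In tbx16, nucleotides 2101 to 2200 of 2544 had a mean of 0.618 in morphants and 0.403 in wild type at 6 h.p.f., a difference of 0.215 over 79 nucleotides, and 0.488 in morphants and 0.339 in wild type at 4 h.p.f. The window before it, 2001 to 2100, had 0.304 in morphants and 0.159 in wild type at 6 h.p.f., and 0.216 in morphants and 0.176 in wild type at 4 h.p.f. Over 60072 windows of all transcripts at 6 h.p.f., the 5th and 95th percentiles were −0.129 and 0.0544. In msgn1, nucleotides 201 to 300 of 1724 had 0.199 in morphants and 0.383 in wild type. At 6 h.p.f., 20 of 25 windows of tbx16, 18 of 22 of tbxta, 13 of 17 of msgn1, 9 of 10 of foxc1a and 7 of 9 of noto were lower in morphants. The median over the 60072 windows of all transcripts was −0.0393, so most windows of any transcript were lower there too. The exact share was not computed, and these counts are not set apart from it.

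**Figure D5:**
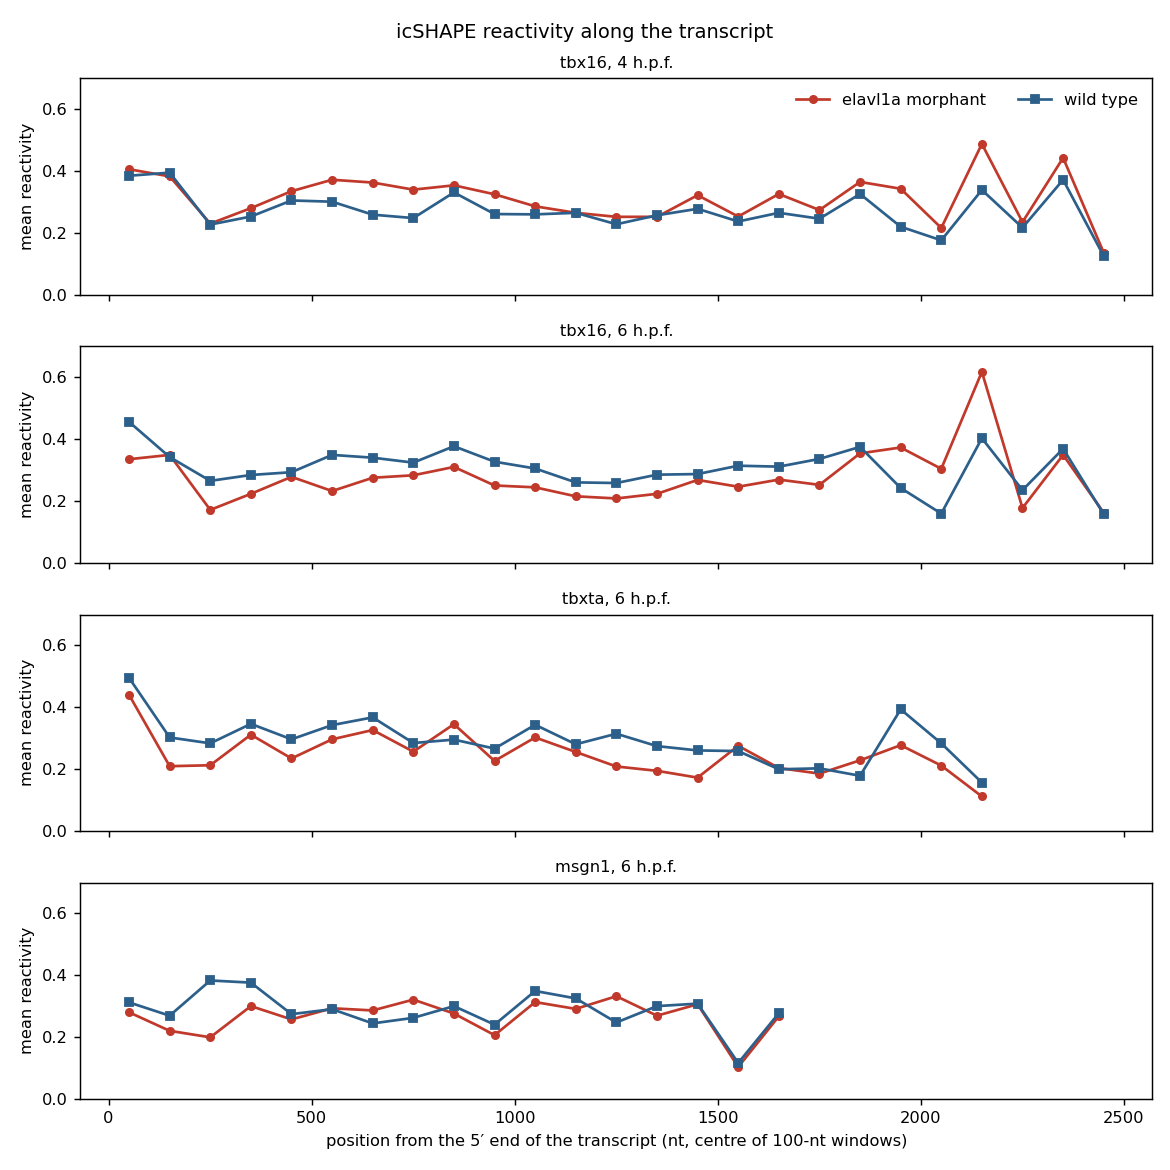
Mean icSHAPE reactivity in windows of 100 nucleotides along tbx16 at 4 and 6 h.p.f. and along tbxta and msgn1 at 6 h.p.f., plotted by distance from the 5′ end, with morphants in red and wild type in blue. The red line of tbx16 lies above the blue in 22 of 25 windows at 4 h.p.f. and in 5 of 25 at 6 h.p.f., including nucleotides 1901 to 2200.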

How the data were processed

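Of the 10 RNA-seq libraries, the deposited files give whole-number counts of uniquely and multiply mapped reads per RefSeq transcript and RPKM values, which the authors computed from both after mapping with Bowtie2 to the RefSeq zebrafish transcriptome. The deposited icSHAPE files give 1 reactivity per nucleotide, a fraction from 0 to 1. The authors trimmed the reads with cutadapt and Trimmomatic, mapped them with Bowtie2 and combined them over replicates. A further value per transcript was read as RPKM from the output format, since no header names it. The iCLIP files were not used here. Transcripts were named through the RefSeq gene table, and 13579 of 13856 matched a symbol. Whether the counting used strand is not given in the sources used here.

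Unique counts were fitted in R 4.3.3 with edgeR 4.0.16 (quasi-likelihood test, library totals as offsets, no TMM) over 5 groups of 2 libraries, with transcripts of at least 1 RPKM on average and Benjamini-Hochberg adjustment. The SE is the log2 fold change divided by the square root of F. Replicates differed beyond sampling noise (chi-square per degree of freedom 3.22 to 4.51). Alternatives were TMM, DESeq2 1.42.0, limma 3.58.1 on log2(RPKM + 1) and log2(RPKM + 0.1), other filters, only the groups compared, a replicate block, each library left out and, chosen after seeing the data, unique and multiple reads summed. Unlisted transcripts entered the tests as 0 reads. A fold against a group at no listed value was set against 0.1 RPKM, the lowest level the files list, and is a lower bound. Scripts were tested on simulated counts. Members and lists were chosen with earlier results of these data known. Every member was named. From each list, up to 4 tested genes were taken by the size of the called change, and the text gives some of them.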

Additional observations from a re-analysis of the deposited data

Results flagged for a closer look

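For 6 members, the effect seen in elavl1a morphants differed between 6 and 4 h.p.f. by the test of that difference in edgeR. The morphant change minus the control change was 2.13 for tbx6, 1.51 for foxc1a, 1.16 for tbx16, 0.84 for tbxta, 0.51 for msgn1 and −1.20 for eomesa, on the log2 scale. Over all transcripts tested, 74.1% were called in this contrast, so 6 calls among 8 members are near that share. For tbx16, tbxta and eomesa the effect itself was called at each stage with opposite signs. For foxc1a and msgn1 it was so too, but on 8 to 20 unique reads per library for foxc1a at 4 h.p.f., and for tbx6 the effect at 4 h.p.f. was not called. Both msgn1 calls were lost in 1 alternative fit each. That at 4 h.p.f. was lost with only the groups compared (edgeR adjusted p = 0.0872), and that at 6 h.p.f. with DESeq2 (adjusted p = 0.146).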

How the results depend on the processing

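The counts of members called kept within 1.5 times of those reported under every alternative but 4. In morphants against controls at 4 h.p.f., 2 members were called lower with only the groups compared (4 reported), and 1 to 2 were called higher over the fits with a library left out (1 reported). In the difference between the stages, 2 were called lower with limma on log2(RPKM + 1) and 1 to 2 with a library left out (1 reported). Signs changed only for values that were not called: tbx6 at 4 over 2 h.p.f. was −0.074, and 0.18 with TMM, 0.23 with DESeq2 and −0.46 to 0.27 with a library left out, and mespaa in the difference between the stages was 0.041, and −0.51 to 0.39 with a library left out. In that difference limma on log2(RPKM + 1) also gave 1.08 for tbx6 and 0.68 for foxc1a, since the pseudocount shrinks low levels, and it called noto (−0.091, adjusted p = 0.0475) and mespaa (0.46, adjusted p = 0.00212). With a mean of at least 5 RPKM, tbx6 could not be tested. Same-numbered libraries did not deviate together (r of −0.0314 to 0.0564), and the labels do not pair them. With a replicate block, 3916 transcripts were higher and 2276 lower in morphants at 4 h.p.f. (3933 and 2278 without it), and no member's call changed.

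With 2 libraries per group, the spread within a group is poorly known, and few reads at 4 h.p.f. limit foxc1a, tbx6 and mespaa. Multiply mapped reads made up 50% of foxc1a reads at 4 h.p.f. and 47.1% of tbx6 reads in morphants there, so reads shared with related genes were left out of the tests but enter RPKM. The icSHAPE values rest on 1 pooled profile per condition, and the depth at each nucleotide is unknown. Their alternatives were transcripts valued at more than 80% of nucleotides, the median nucleotide, nucleotides at 0 left out and a change above 0.3. Over these and the alternatives for the share of the control change, 25 values of single members moved. For reactivity, moved means by more than the standard deviation over all transcripts. Which values moved is not given here.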
